A study of Homo sapiens with 14 samples.

Results

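The high mobility group (HMG) proteins are abundant, non-histone chromatin proteins, and 10 genes of this superfamily were followed through all bulk RNA-seq data of a study on senescence of human lung fibroblasts. The genes were chosen by name: HMGB1, HMGB2 and HMGB3 (HMG-box proteins), HMGA1 and HMGA2 (AT-hook proteins), and HMGN1 to HMGN5 (nucleosome-binding proteins). All 10 were listed in every table, among 25301 genes that the 3 kinds of table share. The cells were IMR90, human lung fibroblasts labelled as a cell line, of limited replicative lifespan, in 7 groups with 2 replicates each in the sample titles. I79 young and I10 young were low-passage cells of 2 isolates of the line, and I79 old and I10 old were the same isolates after replicative senescence at high passage. I79 ICM was low-passage I79 treated with inflachromene (ICM), a small molecule known as a binder of HMGB1 and HMGB2, at a dose and for a time that the labels do not give. WT (labelled wild type) and HMGB2 KD (HMGB2 knockdown, made with siRNA according to the study) came without an isolate name, and a nontargeting control is not named in their labels. No label ties a replicate to a separate culture, so p-values measure the spread between these samples, which may be technical.

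HMGB proteins bend DNA without strong sequence preference, and both HMGB1 and HMGB2 are known to leave the nucleus of senescent fibroblasts, HMGB1 acting outside the cell as a danger signal. HMGA proteins bind the minor groove of AT-rich DNA, accumulate in the heterochromatic foci of senescent fibroblasts, and are otherwise typical of embryonic and tumour cells. HMGN proteins bind the nucleosome core and compete with linker histone H1.

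The genes lie apart in the genome (GRCh37, GENCODE). HMGB1 is at chr13:31030841-31191734, HMGB2 at chr4:174252527-174255583 and HMGB3 at chrX:150148982-150159244. HMGA1 is at chr6:34204650-34214008 and HMGA2 at chr12:66218240-66360071. HMGN1 is at chr21:40714241-40721573, HMGN2 at chr1:26798931-26803133, HMGN3 at chr6:79910962-79944406, HMGN4 at chr6:26538594-26547161 and HMGN5 at chrX:80369198-80457412. HMGB1, HMGB2, HMGN1, HMGN3 and HMGN5 are on the minus strand and the others on the plus strand.

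Libraries held between 33561766 and 41168932 gene counts for WT and HMGB2 KD, between 14991385 and 20632959 estimated counts for the old and young columns, and 13290131 and 10971132 reads for I79 ICM. The old and young data came as 1 column a group, read here as the authors' pooled value. Whether a column holds both replicates or only 1 was not settled. Each group thus has no SD, and the isolates served as replicates. All 10 fibroblast markers (collagens, VIM, PDGFRA and others) were above 1 CPM (counts scaled to the library total) in every column, with a summed level between 12527 and 34145 CPM. Epithelial markers summed to 50.3 to 105 CPM, mostly KRT8 and KRT18, endothelial markers to 0.414 to 10.2 CPM with CDH5 at 0 throughout, and leukocyte markers to 24.5 to 158 CPM, mostly the lysosomal gene CD68, with CD3E at 0 throughout. Of the 10 fibroblast markers, 3 were called higher and 1 lower in the knockdown, where 5.2% of all genes were called by the thresholds given below. In old cells edgeR called 1 (higher) and DESeq2 called 7, with 9.34% of all genes called by edgeR. In ICM-treated cells 6 of 10 were lower than in I79 young by more than 0.6 on the log2 scale (median −1.04, 28.9% of all genes lower). The part of these shifts in the HMG values was not tested. In bulk samples, fewer cells with a transcript and less of it in each cell cannot be told apart.

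The knockdown was asked first which HMG genes besides its target differed. HMGB2 itself stood at 27.1 and 27.3 CPM (TMM-scaled, as all CPM of this comparison) in WT, and after knockdown its level was 3.22 and 3.64 CPM. The knockdown libraries thus kept 12.6% of the WT mean, and the labels and the target gene go together (log2 fold change −2.99, SE 0.16, n = 2 and 2, adjusted p = 8.3e-07, edgeR quasi-likelihood test). A gene is called below where its adjusted p was under 0.01 and its log2 fold change exceeded 0.6 in size. Of the 10 HMG genes, 3 were called, HMGB2, HMGA2 and HMGN3, set beside 5.2% of all 15338 tested (2.86% up and 2.34% down). HMGB2 is the target, so its call was set by the design, and only HMGA2 and HMGN3 were called besides it. At an adjusted p under 0.05 the same number of HMG genes, 3 with the target included, was called, and 7.74% of all genes. The median log2 fold change of the 10 was 0.03, against 0.00 (0.00184) over all genes.

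HMGA2, the AT-hook protein of embryonic tissue, rose upon knockdown. Its WT libraries read 223 and 199 CPM, the HMGB2 KD libraries 321 and 375 CPM, so that both knockdown libraries lay above both WT libraries (log2 fold change 0.72, SE 0.14, adjusted p = 0.0051). The call was lost without WT replicate 2 (0.64, adjusted p = 0.046) and without HMGB2 KD replicate 2 (0.60, adjusted p = 0.036). HMGA1, its close relative, had WT levels of 310 and 285 CPM, and its HMGB2 KD levels were 343 and 582 CPM. HMGB2 KD replicate 1 was nearer to WT than to the other knockdown library, and HMGA1 was not called (0.64, SE 0.20, adjusted p = 0.058). Without HMGB2 KD replicate 1 the HMGA1 value was 0.96 (adjusted p = 0.0021, called), and without HMGB2 KD replicate 2 it was 0.21 (adjusted p = 0.47).

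HMGN3, a nucleosome-binding protein, fell. WT libraries held 31.1 and 30.3 CPM of it, whereas HMGB2 KD libraries held 17.6 and 16.8 CPM, which is 56.1% of the WT mean (log2 fold change −0.83, SE 0.14, adjusted p = 0.0014). The groups did not overlap, and the call held without each library in turn. Across all genes tested, 53.8% had libraries of WT and HMGB2 KD that did not overlap, so that separation alone was common here.

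The other HMGB genes were not called. HMGB1, by far the more abundant of the pair that ICM binds, had WT levels of 365 and 357 CPM and HMGB2 KD levels of 385 and 347 CPM, which overlap (0.02, SE 0.14, adjusted p = 0.96). HMGB3, the X-linked family member, read 35.0 and 34.4 CPM against 40.0 and 37.7 CPM (0.16, SE 0.13, adjusted p = 0.50). The fold threshold bars any change of 0.6 or less whatever its SE, so smaller changes of HMGB1 or HMGB3 could not have been called.

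The remaining HMGN genes were not called either. HMGN1 libraries read 221 and 227 CPM for WT and 218 and 241 CPM with the knockdown (0.04, adjusted p = 0.92). HMGN2 read 124 and 138 CPM against 106 and 123 CPM (−0.19, adjusted p = 0.45). HMGN4, a retrotransposed relative of HMGN2, read 63.6 and 63.9 CPM against 67.2 and 65.0 CPM (0.05, adjusted p = 0.86). HMGN5, the X-linked and least expressed member, read 5.05 and 4.63 CPM against 4.67 and 3.31 CPM (−0.28, adjusted p = 0.56). The plot of WT and knockdown levels gives each library.

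**Figure D1:**
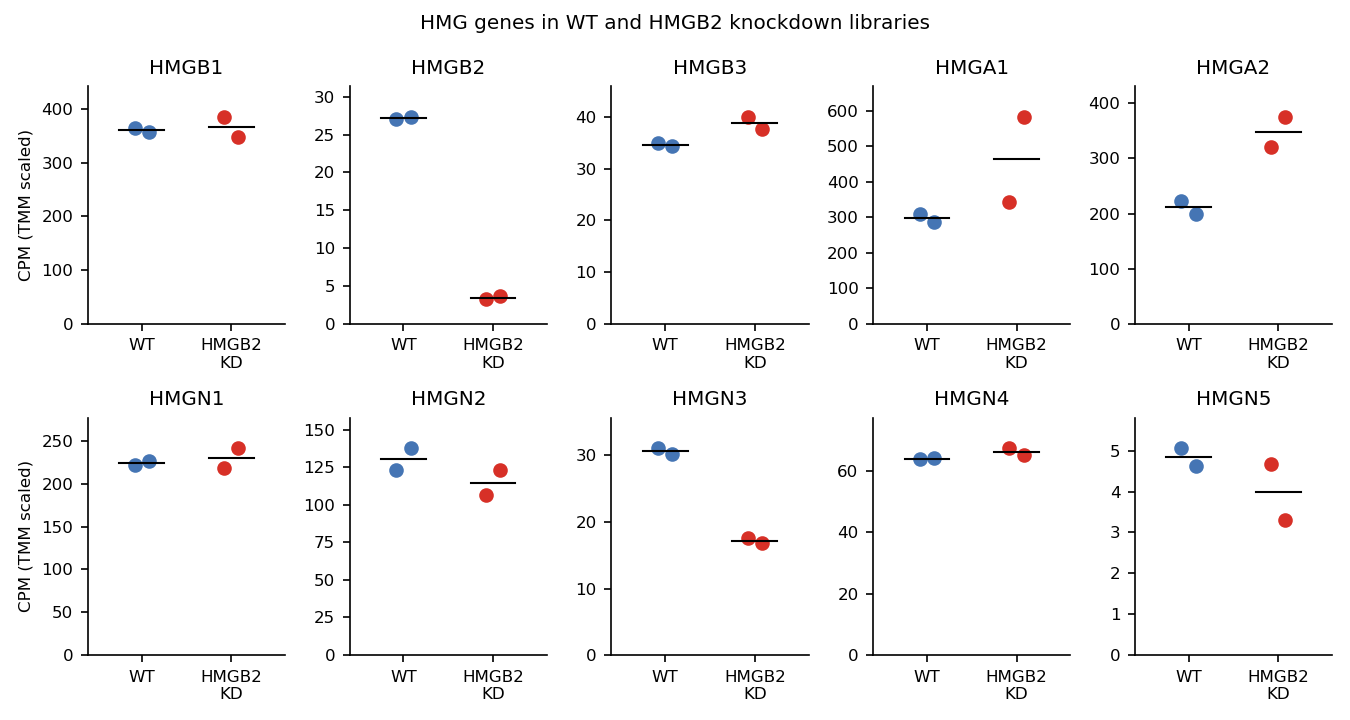
Level of each HMG gene in CPM (vertical axis from 0, TMM scaled) in the 2 WT (blue) and 2 HMGB2 KD libraries (red), with the mean of each group as a line. HMGB2 and HMGN3 sit lower and HMGA2 sits higher in both HMGB2 KD libraries, and the HMGA1 points of HMGB2 KD lie at 343 and 582 CPM.

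The question of the old and young columns was how the family stands in replicative senescence. All HMGB genes were called lower, as was HMGN2 of the 5 HMGN genes, and HMGA2 of the 2 HMGA genes was called higher. HMGA1 was also higher and HMGN3 also lower in both isolates, past 0.6 but short of the p threshold. HMGN1 and HMGN4 were lower in both isolates by less than 0.6. Of the 10 genes, 5 were called (1 higher, 4 lower), set beside 9.34% of all 15135 tested (5.65% up, 3.69% down). At an adjusted p under 0.05, 7 HMG genes and 25.4% of all genes were called. Within isolates, without a test, 7 of the 10 were past 0.6 in I79 and 7 in I10, against 38% and 33.9% of all genes. The columns of young and old did not overlap in 73.9% of all genes tested. The median log2 fold change of the 10 was −0.69, against −0.01 over all genes. These tests rest on 2 isolates and 1 residual degree of freedom.

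HMGB1 read 486 CPM in I79 young and 171 CPM in I79 old, and 483 and 191 CPM in I10. Both old columns lay below both young columns (log2 fold change −1.42, SE 0.12, adjusted p = 0.0048). Within isolates the change was −1.51 (95% counting interval −1.57 to −1.45) in I79 and −1.34 (−1.40 to −1.28) in I10. HMGB2, known for its loss on entry into senescence, read 122 and 38.2 CPM in young and old I79, and 141 and 46.3 CPM in I10 (−1.64, SE 0.10, adjusted p = 0.0037). HMGB3 read 53.4 and 16.7 CPM in I79, and 52.3 and 18.4 CPM in I10 (−1.59, SE 0.12, adjusted p = 0.0043). The HMGB genes thus fell by a similar amount, from −1.42 to −1.64, though differences between them were not tested.

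HMGA2 had the largest change of the 10 in these columns, with 65.7 CPM in I79 young against 429 CPM in I79 old, and 96.9 against 418 CPM for isolate I10 (log2 fold change 2.41, SE 0.18, adjusted p = 0.0043). In I79 the rise was 2.71 (95% counting interval 2.61 to 2.80) and in I10 it was 2.11 (2.04 to 2.18). HMGA1 read 373 and 651 CPM in I79 and 404 and 890 CPM in I10, higher in the old column of each isolate. It missed the call (0.97, SE 0.15, adjusted p = 0.013) and passed it under 4 of the alternatives given in the closing section.

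Among the HMGN genes the columns differed from member to member. HMGN2 read 385 and 117 CPM in young and old I79, 400 and 118 CPM in I10, and it alone of the HMGN genes was called with these settings (−1.74, SE 0.11, adjusted p = 0.0037). HMGN1 read 288 and 208 CPM in I79 and 299 and 214 CPM in I10 (−0.47, adjusted p = 0.032). HMGN3 read 30.0 and 15.6 CPM in I79 and 29.6 and 16.3 CPM in I10, below the young level in both isolates, with a value past the fold but not the p threshold (−0.90, SE 0.13, adjusted p = 0.011). HMGN4 read 51.7 and 40.5 CPM and 49.5 and 43.0 CPM (−0.28, adjusted p = 0.11). HMGN5 read 3.07 and 4.61 CPM in I79 and 3.91 and 3.98 CPM in I10, with counting intervals of 0.06 to 1.13 and −0.46 to 0.51 (0.30, adjusted p = 0.45). The plot of young and old levels shows the 2 isolates side by side.

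**Figure D2:**
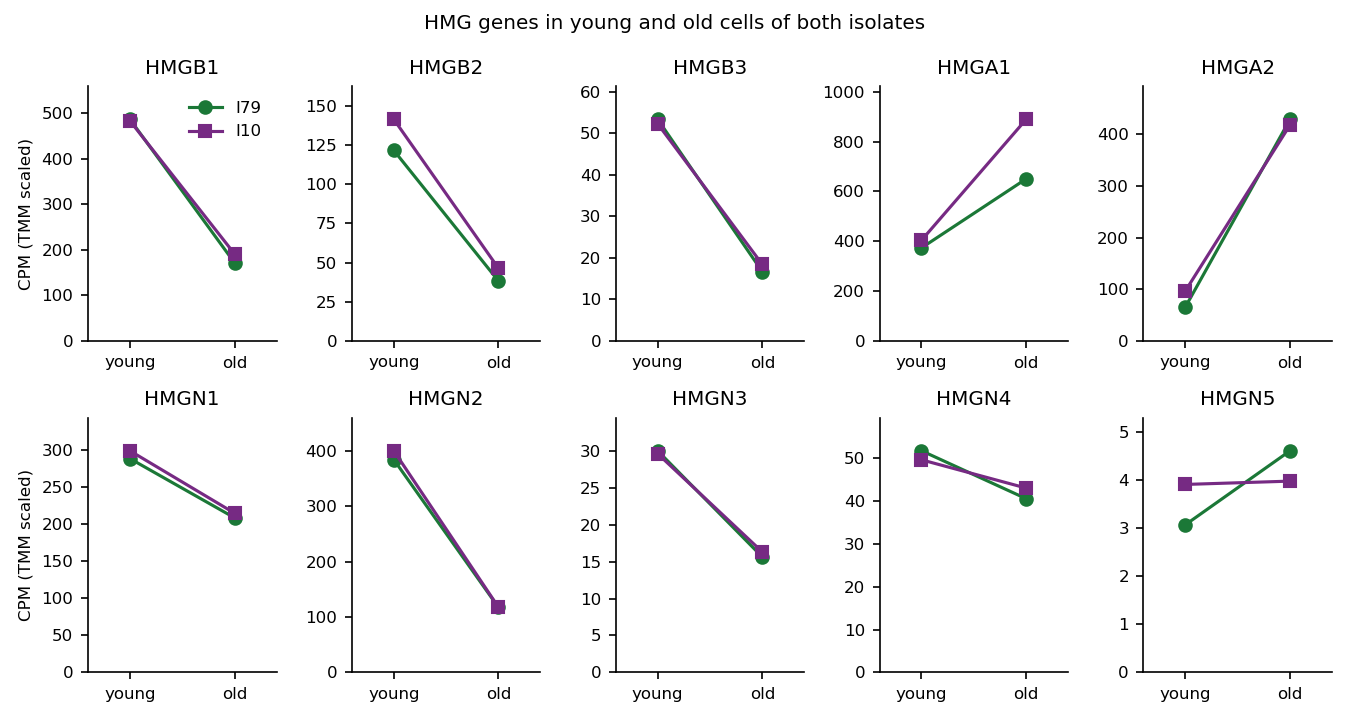
Level of each HMG gene in CPM (vertical axis from 0, TMM scaled) in the young and old columns of isolates I79 (circles) and I10 (squares), joined by a line. HMGB1, HMGB2, HMGB3 and HMGN2, which were called, slope down in both isolates, and HMGA2, which was called, slopes up. HMGN1, HMGN3 and HMGN4 also slope down and HMGA1 slopes up in both isolates, without being called.

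Proliferation genes moved with the HMGB genes in these columns. Of 17 tested (MKI67, TOP2A, MCM genes and others), edgeR called 14 lower in old cells and DESeq2 called all 17, with a median of −2.06, where 3.69% of all genes were called lower by edgeR. MKI67 read 194 CPM in I79 young and 21.8 CPM in I79 old, and 228 and 54.1 CPM in I10. In the knockdown, 0 of 18 were called by edgeR and 0 by DESeq2, 1 had an unadjusted p under 0.05, and the median was −0.01. WT itself read 32.1 and 37.8 CPM of MKI67, below both young columns, though the tables were counted in different ways. The knockdown was thus set against a control with little MKI67. In ICM against I79 young, where 59.4% of all genes were past 0.6, 16 of 18 were lower and 2 higher, with a median of −3.63. The 2 higher ones, named after their values were seen, were CCNA2, listed at 0 in I79 young with 4.75 and 4.36 CPM in ICM and 19.7 CPM as the WT mean, and MCM4, at 1.51 CPM in I79 young, 21.6 and 19.2 CPM in ICM and 39.1 CPM in WT. Both were thus lower in ICM than in WT. The part of proliferation in the old and young values of the HMG genes was not tested. CDKN1A, a cell cycle inhibitor of senescence, was higher in old cells (2.48, adjusted p = 0.0043), and LMNB1, a nuclear lamin lost in senescence, was lower (−2.86, adjusted p = 0.0037). CDKN2A, the remaining gene of this senescence check, was not called (0.44, adjusted p = 0.31). It read 9.34 and 8.57 CPM in young and old I79, and 9.65 and 18.8 CPM in I10.

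Per length, the makeup of the family in TPM turned from HMGB and HMGN to HMGA. Summed TPM of the HMGB genes was 975 and 1008 in young and 285 and 329 in old cells of I79 and I10. The HMGA sum was 381 and 432 TPM in young and 711 and 880 TPM in old cells, and the HMGN sum was 1179 and 1224 TPM in young and 524 and 517 TPM in old cells. The ratio of HMGA to HMGB TPM was 0.391 and 0.429 in young and 2.49 and 2.68 in old cells. HMGB1 (703 and 692 TPM) and HMGN2 (651 and 682 TPM) led the young columns, and HMGA1 (557 and 729 TPM) led the old ones. All 10 genes together made 2535 and 2664 TPM in young and 1521 and 1726 TPM in old cells.

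Transcript estimates showed which isoforms carried these levels. HMGA2-204, with a coding region of 109 residues, took 94.8% to 97.1% of HMGA2 reads in the 4 columns. HMGA1-202, whose coding region of 96 residues is shorter than the 107 of HMGA1-201, took 19.9% in I79 young and 12.3% in I79 old, and 19.5% in I10 young and 14.01% in I10 old. HMGN3-203 (130 residues) took 8.24% of HMGN3 reads in I79 young and 29.3% in I79 old, and 13.3% in I10 young and 24.3% in I10 old, while HMGN3-201 (77 residues) took 44.5% and 31.2%, and 56.1% and 36.8%. In reads, HMGN3-203 went from 38.6 to 84.4 in I79 and from 75.7 to 71.6 in I10, so its larger share came with more reads in I79 only. These shares are estimates of 1 column a group, without a test.

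**Figure D3:**
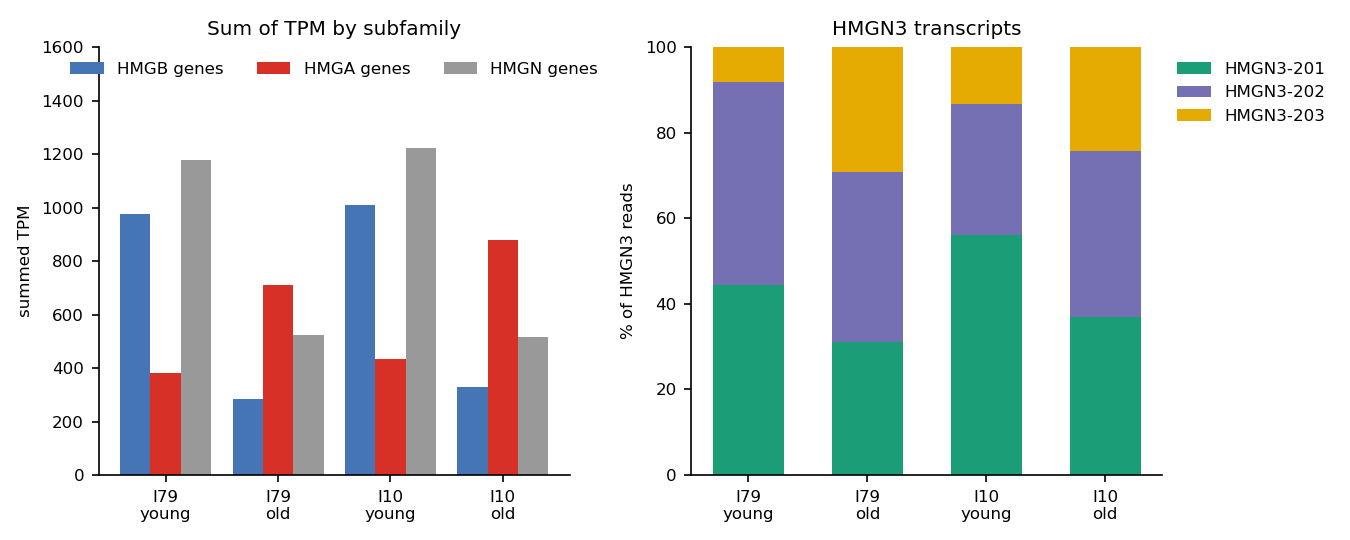
Left, summed TPM (vertical axis from 0) of HMGB, HMGA and HMGN genes in each young and old column. Right, percentage of HMGN3 reads by transcript in the same columns, with HMGN3-203 at 8.24% and 29.3% in I79 and at 13.3% and 24.3% in I10.

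HMGA2 is a known target of the let-7 microRNAs, which pair through their seed with its 3′ UTR. The seed and its matches in the transcript that carried the HMGA2 reads are shown because they are the letters this regulation reads. The mature let-7a sequence (RefSeq, GRCh38.p14 table, seed of bases 2 to 8 in capitals) shares its seed with 11 mature miRNA names of the table, itself included, and 4 matches to the seed lie in the last exon (exon 5 of 5) of HMGA2-204, on the plus strand of chromosome 12 in GRCh37 (7 matching letters in capitals).
hsa-let-7a-5p: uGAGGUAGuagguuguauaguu
HMGA2 site 1, chr12:66357079-66357100: ccaacgttcgatttCTACCTCa
HMGA2 site 2, chr12:66358314-66358335: cccactactcaataCTACCTCt
HMGA2 site 3, chr12:66358726-66358747: tgacttgcaaagacCTACCTCc
HMGA2 site 4, chr12:66359579-66359600: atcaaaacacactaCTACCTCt

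The leading transcript of HMGA1 held 1 such match and those of the other 8 HMG genes held 0, in 3′ UTRs of 379 to 2857 bases. The sequences searched were those of GENCODE v44, and their lengths can differ from those in the deposited estimates. HMGA2-204 had 4117 bases in the search and 4473 in the estimates, and HMGN2-201 had 1940 and 1191. A match is a description of the sequence, since miRNAs were not measured. Of the companion list on HMGA2 and let-7 (LIN28 proteins, IGF2BP proteins that bind HMGA2 mRNA, processing enzymes and others), 8 genes were tested in the knockdown and 8 in old against young. In the knockdown edgeR called 2 of 8, which is 25% of the list against 5.2% of all genes. DICER1, the enzyme that cuts out mature miRNAs, fell from WT levels of 90.2 and 112 CPM to 63.1 and 67.1 CPM (−0.64, adjusted p = 0.0080), and RPSAP52 rose. In old against young, edgeR called 0 of 8 and DESeq2 called 2, with 6 at an unadjusted p under 0.05, where edgeR called 9.34% of all genes. DICER1 had the other sign there, 77.8 and 106 CPM in I79 and 74.5 and 101 CPM in I10 (0.44, adjusted p = 0.028). In ICM against I79 young, without a test, 4 of 7 were lower past 0.6 and 0 higher. That is 57.1% of the list against 59.4% of all genes.

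RPSAP52 lies on the strand opposite HMGA2 and overlaps it, and the counting is not stated to use strand, so that its reads and those of HMGA2 cannot be told apart with certainty. It had 33 and 45 counts in WT and 145 and 118 counts in HMGB2 KD (log2 fold change 1.67, SE 0.34, adjusted p = 0.0057), and 8 and 55 estimated counts in I79 young and old and 8 and 87 in I10. HMGA2 had between 7444 and 14971 counts in the knockdown libraries and WT. HMGN3-AS1, opposite HMGN3, had 61 and 83 counts in WT and 60 and 78 in HMGB2 KD, against 1063 and 1131, and 645 and 670, counts of HMGN3.

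HMGN2 was the HMGN gene called in old cells, and its promoter is given because its letters can be set against those of the genes that fell with it. Promoters of 300 bases (250 before and 50 after a start site, RefSeq, GRCh38.p14) matched 8 of the 10 genes, as 12 start sites, and HMGB2 and HMGA2 had no entry and were not searched. The HMGN2 promoter (chr1:26472190-26472489, plus strand) holds 1 CCAAT and 1 TTTAAA, in capitals.
HMGN2: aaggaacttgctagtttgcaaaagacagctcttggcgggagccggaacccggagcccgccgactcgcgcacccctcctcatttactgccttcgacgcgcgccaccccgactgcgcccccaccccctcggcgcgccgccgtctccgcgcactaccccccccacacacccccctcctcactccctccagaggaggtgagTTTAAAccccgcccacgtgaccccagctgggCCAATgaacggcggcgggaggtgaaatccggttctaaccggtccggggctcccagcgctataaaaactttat

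Searched on both strands, CCAAT (the letters bound by NF-Y) was in 8 of the 12 promoters, from HMGA1, HMGB1, HMGB3, HMGN1, HMGN2 and HMGN3, and in 34.6% of all 35116 promoters. TTTGAA and TTTAAA (letters of cell cycle homology regions) were in 2 of the 12 (HMGB1 and HMGB3) and in 4 of the 12 (HMGA1, HMGB3, HMGN2 and HMGN4), and in 15.2% and 12.2% of all promoters. TTTNNCGC, a form of the E2F site, was in 0 of the 12 and in 6.89% of all. CCAAT was thus present in genes called lower in old cells and in HMGA1, which was not.

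ICM-treated cells were set beside I79 young, the same isolate untreated. The ICM libraries were counted in another way, so ratios carry no test. The ratio of WT to I79 young, computed alike, is printed beside them as a background. WT was counted in yet another way, and its cells differ from I79 young as well (MKI67 at 37.5 CPM as the WT mean and 218 CPM in I79 young). The background thus mixes counting with cell state and cannot measure the counting of the ICM libraries. I79 young is also the young column of the comparison above. A log2 ratio past 0.6 in size was found for 7 of 10 HMG genes (6 lower, 1 higher), where 59.4% of 13871 genes passed (28.9% lower, 30.5% higher) and where 43.1% passed for WT against I79 young. The median of the 10 was −1.23, against 0.00 (−0.00174) over all genes.

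All HMGB genes were low in ICM-treated cells. HMGB2 had 4.36 and 5.85 CPM (over the genes shared by the tables) in the ICM libraries, on 57 and 63 reads, against 137 CPM in I79 young, a log2 ratio of −4.74. The WT background for HMGB2 was −2.22, and the log2 ratio of ICM to WT was −2.51. HMGB1 had 117 and 114 CPM against 547 CPM (−2.24, background −0.50), and HMGB3 had 10.4 and 10.5 CPM against 60.0 CPM (−2.51, background −0.69). The ICM levels of all HMGB genes were also below those of I79 old, where HMGB1, HMGB2 and HMGB3 had 171, 38.3 and 16.7 CPM. The log2 ratios of ICM to I79 old were −0.57, −2.90 and −0.67 in that order. For HMGB1 and HMGB3 these are about the size of the WT background. A lower level than in old cells thus cannot be told from differences between tables for HMGB1 and HMGB3.

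HMGA2, high in old cells, was low in ICM-treated cells. It had 24.0 and 20.4 CPM in the ICM libraries against 73.9 CPM in I79 young and 430 CPM in I79 old. The log2 ratio was −1.73 to I79 young and −4.27 to I79 old, with a background of the opposite sign (1.61). HMGA1 had 366 and 366 CPM against 420 CPM in I79 young and 652 CPM in I79 old (−0.20 to young, background −0.40).

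The HMGN genes had mixed ratios. HMGN2 had 159 and 147 CPM against 433 CPM (−1.501), but the background was as low (−1.63), and against WT the value was 0.13. HMGN1 had 173 and 158 CPM against 324 CPM (−0.97, background −0.43), and HMGN4 had 43.8 and 42.0 CPM against 58.1 CPM (−0.44, background 0.23). HMGN3 had 41.1 and 46.2 CPM against 33.8 CPM in I79 young and 15.7 CPM in I79 old (0.37 to young, 1.47 to old). HMGN5 had 5.51 and 6.31 CPM, on 72 and 68 reads, against 3.45 CPM (0.76, background 0.57). The plot of log2 changes sets the 3 comparisons beside each other.

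**Figure D4:**
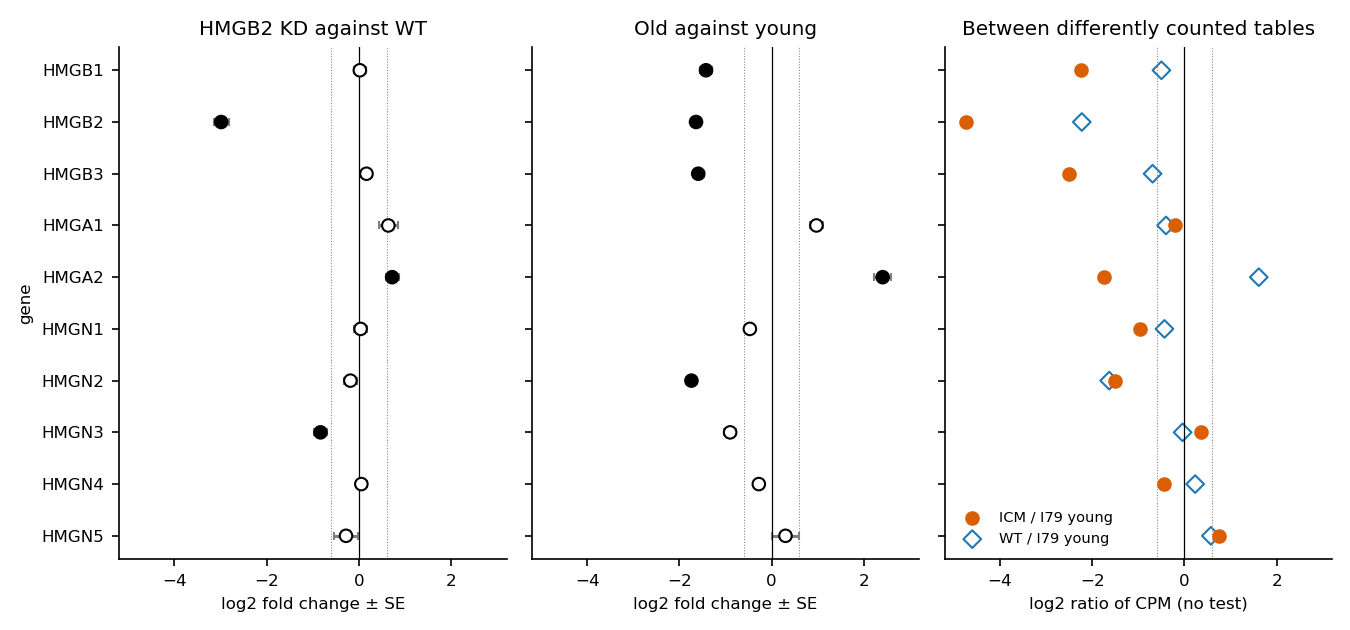
Log2 change of each HMG gene (horizontal axis) in HMGB2 KD against WT and old against young (points with SE, filled where called), and log2 ratio of I79 ICM (orange) and WT (open diamonds) to I79 young, without a test. HMGA2 is at 0.72, 2.41 and −1.73, and dotted lines mark 0.6 and −0.6.

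The ICM tables give reads by transcript region, which bears on these ratios. Over all genes, 61.1% and 61.9% of reads lay in coding regions and 25.3% and 24.2% in 3′ UTRs. For HMGA1, 22.7% and 22.5% of reads were coding and 61.2% and 61.4% were in the 3′ UTR. HMGA2 (62.1% and 57.2%) and HMGN4 (60.8% and 58.9%) were likewise mostly 3′ UTR reads. HMGB3 (58.1% and 48.5%) and HMGN2 (48.9% and 46.9%) also lay above all genes in 3′ UTR share. HMGB2 lay below, with 3.51% and 4.76%, on 2 and 3 reads. HMGN2 had 18.9% and 20.4% coding reads and 32.2% and 32.7% in the 5′ UTR, whereas HMGN3 had 57.0% and 60.2% coding reads. No untreated library was counted by region. With coding reads only on the ICM side, the log2 ratio to I79 young was −1.72 for HMGA1, −3.38 for HMGA2, −3.22 for HMGN2 and −2.32 for HMGN4, and it was −2.53, −4.66 and −3.14 for HMGB1, HMGB2 and HMGB3. I79 young kept its counts over whole transcripts here, so genes with a small coding share move down by construction. These ratios thus show how much the region counted matters, and no further loss can be read from them.

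**Figure D5:**
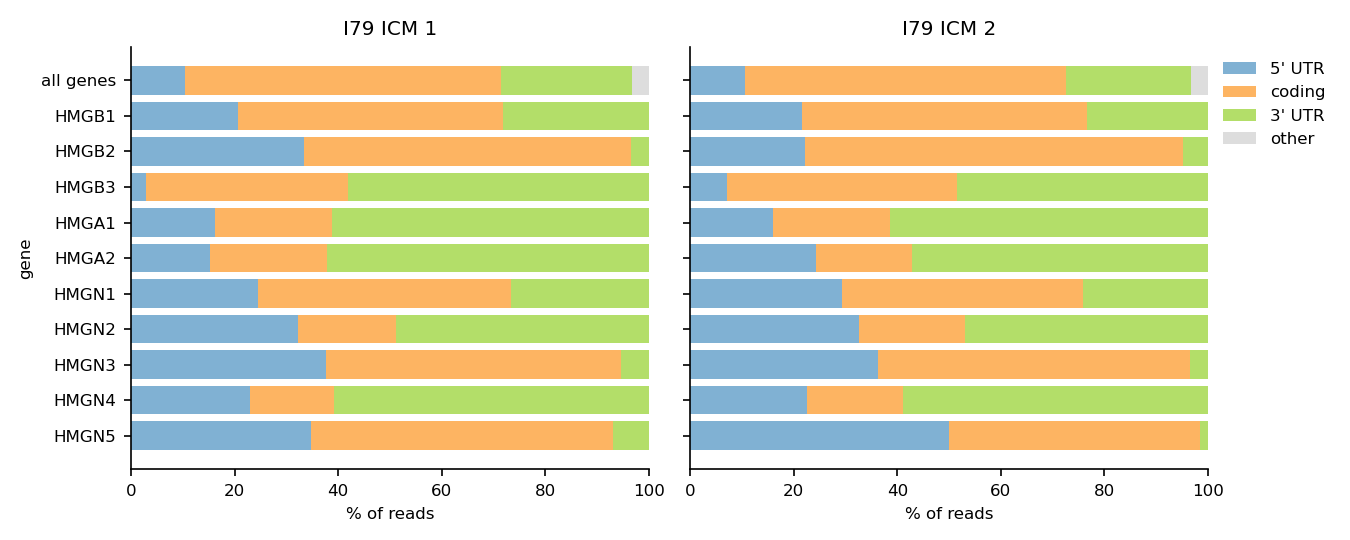
Percentage of reads (horizontal axis) in the 5′ UTR, coding region and 3′ UTR for all genes together and for each HMG gene in the 2 ICM libraries. HMGA1, HMGA2 and HMGN4 hold more 3′ UTR reads (57.2% to 62.1%) than all genes together (25.3% and 24.2%). HMGB3 and HMGN2 also hold more (46.9% to 58.1%), and HMGB2, HMGN3 and HMGN5 hold fewer (1.47% to 6.94%).

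Set in order over the 5 states, on the scale of shared genes, HMGB1 went from young (547 and 548 CPM) over WT (382 and 392 CPM), HMGB2 KD (350 and 398 CPM) and old (171 and 181 CPM) to ICM (114 and 117 CPM), and only WT and HMGB2 KD overlapped as neighbours. HMGB2 went from young (137 and 160 CPM) over old (38.3 and 43.95 CPM), WT (29.1 and 29.3 CPM) and ICM (4.36 and 5.85 CPM) to HMGB2 KD (3.33 and 3.66 CPM), with no neighbours overlapping. WT cells thus stood nearer to old than to young cells in HMGB2. HMGA2 went from old (397 and 430 CPM) over HMGB2 KD (332 and 378 CPM), WT (213 and 239 CPM) and young (73.9 and 110 CPM) to ICM (20.4 and 24.0 CPM), again without overlap. HMGN3 went from ICM over young and WT to HMGB2 KD (16.9 and 18.2 CPM) and old (15.5 and 15.7 CPM). Levels set across tables depend on how each was counted.

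Genes most like 3 of the HMG genes were sought over 8 columns (WT, HMGB2 KD, old and young), among 11811 genes, by the root mean square distance of centred log2 CPM. Nearest HMGB1 were ODC1 (0.0566), CENPK (0.0575) and SRSF1 (0.0712). Nearest HMGA2 were FGF5 (0.138), SHROOM3 (0.149) and LAMA1 (0.155). HMGB2 had no gene as near, with RASL11A (0.463), ADAT2 (0.502) and CD36 (0.507) at the head. HMGB2 is the target of the siRNA in the HMGB2 KD columns, so its larger distances were partly set by the design. RASL11A, ADAT2 and CD36 had log2 fold changes of −2.30, −1.89 and −2.10 in the knockdown, and −0.67, −0.98 and −0.98 in old against young. The columns share tables and isolates, so these distances are descriptions.

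Related proteins were counted as lists. Of 28 other HMG-box genes tested, 2 fell in the knockdown, TFAM, the packaging protein of mitochondrial DNA (−0.84, adjusted p = 0.0019), and SOX5 (−0.88, adjusted p = 0.00995), with a list median of 0.05. That is 7.14% of the list, near the 5.2% of all genes. In old cells edgeR called 3 of 28 lower, which is 10.7% against 9.34% of all genes, and 12 had an adjusted p under 0.05. The 3 were SSRP1, a subunit of the histone chaperone FACT (−0.90, adjusted p = 0.0066), SOX4 (−1.28, adjusted p = 0.0072) and SOX11 (−2.20, adjusted p = 0.0052), with a list median of −0.13. In ICM against I79 young, 16 of 27 were lower and 1 higher past 0.6, which is 63% against 59.4% of all genes. The farthest were SOX11 (−3.42), SOX4 (−2.95), NSD2 (−2.63), SOX5 (2.40), PBRM1 (−1.97) and SSRP1 (−1.94). SOX5 had 6.20 and 6.31 CPM in ICM, 1.11 CPM in I79 young and 16.3 CPM as the WT mean, so it was lower in ICM than in WT.

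Linker histones, which HMGN proteins displace, had 3 genes tested in the knockdown, of which edgeR and DESeq2 called 0 and 0 had an unadjusted p under 0.05. In old cells, edgeR and DESeq2 also called 0 of 3, with 2 at an unadjusted p under 0.05. In ICM cells H1-2, whose replication-dependent mRNA mostly lacks a poly(A) tail, had 291 and 301 CPM against 8.42 CPM in I79 young (5.12), and H1-5 had 2.53 and 2.97 against 0.0720 CPM (4.16). The part of RNA selection in the ICM values was not tested.

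Of the HMGB1 receptors and the factors of its export and release, 1 of 11 tested fell in the knockdown, THBD, which binds HMGB1 (−1.80, adjusted p = 0.0080). That is 9.09% of the list, against 5.2% of all genes called. In old cells edgeR called 4 of 10, all lower, which is 40% of the list against 9.34% of all genes. CXCL12, a chemokine that pairs with HMGB1, read 414 CPM in I79 young and 29.6 CPM in I79 old, and 494 and 41.8 CPM in I10 (−3.68, adjusted p = 0.0034). The others were KPNA2, a nuclear import factor (−1.73, adjusted p = 0.0057), APEX1 (−0.97, adjusted p = 0.0066) and ANP32A (−0.93, adjusted p = 0.0063), both of the SET complex. In ICM cells 9 of 10 were lower than in I79 young past 0.6, where 28.9% of all genes were. CXCL12 had 31.2 and 36.1 CPM in ICM against 466 CPM in I79 young (−3.79), but the WT mean was lower still, at 16.4 CPM.

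Processed pseudogenes share sequence with these genes and can take or give reads. HMGB1 pseudogenes held 11.05% to 13.0% of the reads of HMGB1 and its pseudogenes together in old and young columns, mostly HMGB1P6 (1087 and 382 estimated reads in I79 young and old, 1240 and 482 in I10), and 4.83% to 5.36% in WT and HMGB2 KD. HMGN2 pseudogenes held 2.71% to 3.38% in WT and HMGB2 KD. Adding pseudogene counts to the parent gene moved no HMG gene across the thresholds in either test.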

How the data were processed

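The members and lists were chosen with earlier results of these data known. Raw gene counts were deposited by the authors for each WT and HMGB2 KD library. Summary rows (16.9% to 18.0% of each table) were left out. The submitters' processing notes name STAR 2.6.0c, featureCounts and GRCh37, although the tables end in rows of the kind htseq-count writes, and strand use is not given in the sources used here. For old and young cells the authors deposited estimated counts and TPM values per transcript. Counts were summed per gene through GENCODE v44 lifted to GRCh37, which matched 97.7% of transcripts, and rounded. For ICM the authors deposited estimated counts per gene and transcript region. For these region tables the aligner, build and annotation are not given in the sources used here.

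Tests used edgeR 4.0.16 (quasi-likelihood, TMM, filterByExpr, R 4.3.3) over all genes with Benjamini-Hochberg adjustment, 2 against 2 libraries for the knockdown, and isolate as covariate for old against young. DESeq2 1.42.0 was an alternative. The SE is the log2 fold change over the square root of F. ICM ratios used CPM over shared genes with a prior count of 2 and at least 10 mean reads. Intervals are 95% exact Clopper-Pearson intervals and cover counting error only, since reads carry no molecular identifiers. Replicates of WT, HMGB2 KD and ICM differed beyond sampling noise (chi-square over its degrees of freedom 18.0, 28.0 and 1.78). All 10 members are named. Likeness used genes with at least 20 mean counts, and called list genes were named up to 6 per list. Scripts were tested on simulated data.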

Additional observations from a re-analysis of the deposited data

How the results depend on the processing

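In the knockdown, 797 genes were called, 1243 with the replicate number as a block, and between 312 (without HMGB2 KD replicate 2) and 999 without 1 library. Called HMG genes numbered 2 to 4 without 1 library and 3 with the block. WT replicate 1 and HMGB2 KD replicate 1 deviated together with a correlation of only 0.12, and 2 pairs with no other label share just a number, so the block was no part of the design. It changed the call of no HMG gene, but HMGA1 then passed the p threshold and missed the fold threshold (0.59, adjusted p = 0.00025). Values near 0 changed sign without 1 library: HMGB1 ranged from −0.0663 (without HMGB2 KD replicate 1) over −0.000939 (without WT replicate 2) to 0.0962, and HMGN1 from −0.0343 (without HMGB2 KD replicate 2) to 0.0965. Without the filter HMGA1 passed as well (0.63, adjusted p = 0.00050). In old against young, 1414 genes were called, against 2159 by DESeq2, 4250 with no filter and 3847 at an adjusted p under 0.05. The HMG genes called there were 5 to 7. HMGA1 was called by DESeq2, without the filter, from TPM times length and at an adjusted p under 0.05, and HMGN3 with RLE scaling, without the filter, without the isolate covariate, from TPM times length and at an adjusted p under 0.05. For ICM, 5 to 8 HMG genes were past 0.6, the 8 with coding reads only on the ICM side and the 5 with WT as control. With WT as control HMGN2 turned to 0.13, HMGA1 turned from −0.20 to 0.20 and HMGA2 moved to −3.35. The cause was not tested. With 2 libraries or 1 column a group, small changes of low genes such as HMGN5 (48 to 85 counts in the old and young columns) could not be detected.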
